A study of Mus musculus with 8 samples.

Results

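The nuclear genes for the later steps of mitochondrial respiration were examined in mouse haematopoietic stem cells (HSCs) with and without Nynrin. They comprise the subunits of complex II (succinate dehydrogenase), complex III (cytochrome bc1), complex IV (cytochrome c oxidase) and complex V (ATP synthase), together with cytochrome c and the ATP synthase inhibitor Atpif1. The genes were chosen by symbol, without names that mark pseudogenes, which gave 52 of the 55401 gene records in the count table. Earlier results of these data were known when they were chosen. There were 4 records for complex II, 9 for complex III, 1 for cytochrome c, 19 for complex IV and 19 for complex V. Atp5o has a second record that held no reads in any library, so the 52 records carry 51 symbols. Cox6c2 is annotated as a processed pseudogene in the deposited table and was kept because its symbol fits the naming rule.

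Complex II oxidises succinate and hands the electrons to ubiquinone, complex III passes them to cytochrome c, and complex IV passes them to oxygen. Complexes III and IV pump protons as they work, and complex V lets the protons return and makes ATP. HSCs are known for low reliance on this pathway at rest and for raising it when they divide or differentiate. ATP synthase has also been proposed as a component of the mitochondrial permeability transition pore, the channel that the series title links to Nynrin.

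Mice were C57BL/6 and 8 weeks old, and about 3000 HSCs were sorted from marrow for each sample, in 2 groups of 4 libraries. The Nynrin CKO group was Nynrin fl/fl with Tie2-Cre, and the controls were Nynrin fl/fl without Cre, labelled wild type. The Tie2 promoter is active in endothelium as well as in blood cells, and no control carried Cre, so what Cre does and what Nynrin loss does cannot be told apart. The labels do not tie each library to a separate mouse, so p-values reflect only how these libraries vary, and part of that may be technical.

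Total counts ran from 36942835 to 56437299 per library. Nynrin was at 30.1 to 47.5 CPM (counts scaled to the library size) in the controls and at 8.22 to 12.7 CPM in Nynrin CKO (log2 fold change -1.85, edgeR adjusted p = 0.0345). Some libraries stood apart in a way that cuts across the groups. In control 4, Nynrin CKO 3 and Nynrin CKO 4, reads covered 28914 to 31344 genes, with 177 to 216 CPM on olfactory and vomeronasal receptor genes, against 40240 to 44562 genes and 871 to 1443 CPM in the other 5. The biological coefficient of variation was 0.195 for Nynrin CKO 1 against 2 and 0.170 for 3 against 4, and it was 0.262 to 0.405 for pairs of controls. HSC markers were present, with 13 of 13 at a mean of at least 1 CPM and a summed level of 3524 to 4319 CPM in the controls and 4057 to 4546 CPM in Nynrin CKO. Summed markers of several other cell types were higher in Nynrin CKO. Summed neutrophil markers (10 of 10 at 1 CPM or more) were at 205 to 357 CPM in the controls, 476 and 522 CPM in Nynrin CKO 1 and 2, and 4081 and 4115 CPM in 3 and 4. Summed erythroid markers (8 of 8) were at 1083 to 1395 CPM in the controls and 2053 to 2440 CPM in Nynrin CKO. Monocyte and macrophage markers (8 of 8) were at 54.4 to 75.04 and 85.7 to 239 CPM, B cell markers (6 of 7, Cd79a at 0 in some libraries) at 42.9 to 54.9 and 106 to 196 CPM, and T and NK cell markers (1 of 8, Klrd1 and Trac at 0 in some libraries) at 49.3 to 80.7 and 138 to 275 CPM. The T and NK cell sum was mostly Nkg7 (45.9 to 77.7 CPM in the controls, 133 to 267 CPM in Nynrin CKO), while Cd3d averaged 0.281 and 0.157 CPM. In the B cell sum Jchain averaged 9.61 and 80.4 CPM and Pax5 1.82 and 1.65 CPM. Mast cell and basophil markers (7 of 7, Ms4a2 and Prss34 at 0 in some libraries) spanned 79.0 to 139 CPM in the controls and 112 to 205 CPM in Nynrin CKO, and endothelial markers (8 of 8) 154 to 188 and 151 to 263 CPM. In the controls the mast cell and basophil sum was mostly Gata2, which averaged 89.8 and 81.5 CPM in the 2 groups. Of the 7, Cpa3 (6.17 and 44.6 CPM) and Hdc (1.54 and 11.9 CPM) were called higher, while Fcer1a averaged 2.70 and 2.53 CPM. The part of these cells in the results below was not tested, and in bulk RNA more cells of a type and more RNA per cell cannot be told apart.

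Of the 52 records, 48 passed the filter on low counts and were tested. Sdhb, Uqcrc1, Uqcr10, Cox5a, Cox6a1, Cox6b1, Atp5o and Atpif1 rose in Nynrin CKO, with ratios of group means from 1.49 to 1.75, and no member fell. That is 8 of 48, or 16.7%, where 2.22% of all 27573 tested genes were called higher and 0.588% lower (edgeR quasi-likelihood test, adjusted p threshold of 0.05). Most members are short, and among expressed genes in the shortest of 5 length bins 8.16% were called higher. In that bin 7 of 35 members were called. Members without a call leaned upward too. With the main scaling, trimmed mean of M-values (TMM), 47 of the 48 had a positive log2 fold change, and 42 did when libraries were scaled by total counts, against 44.5% of all tested genes with TMM. The median log2 fold change of the tested members was 0.50, with quartiles of 0.39 and 0.62, and that of all tested genes was -0.09. In 29 of the 48, every Nynrin CKO library lay above every control, which 9.52% of all tested genes did as well. None lay below every control in every Nynrin CKO library, against 4.83% of all tested genes. At an unadjusted p under 0.05, 37 members were higher and none lower, against 13.2% and 5.78% of all tested genes. Nynrin CKO 1 and 2 both exceeded all controls in 31 of the 48 (18.4% of all tested genes), and Nynrin CKO 3 and 4 did in 41 (22.1%). Each of the 8 calls was lost when any single library other than control 4 was left out, with adjusted p up to 0.296, and also under 7 other settings, a term for the replicate number among them. Such losses were not particular to the members. The main fit called 611 genes higher over the whole table. Without controls 1, 2 and 3 the numbers were 3, 4 and 2, without Nynrin CKO 1 it was 1, and with the replicate term 0.

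**Figure D1:**
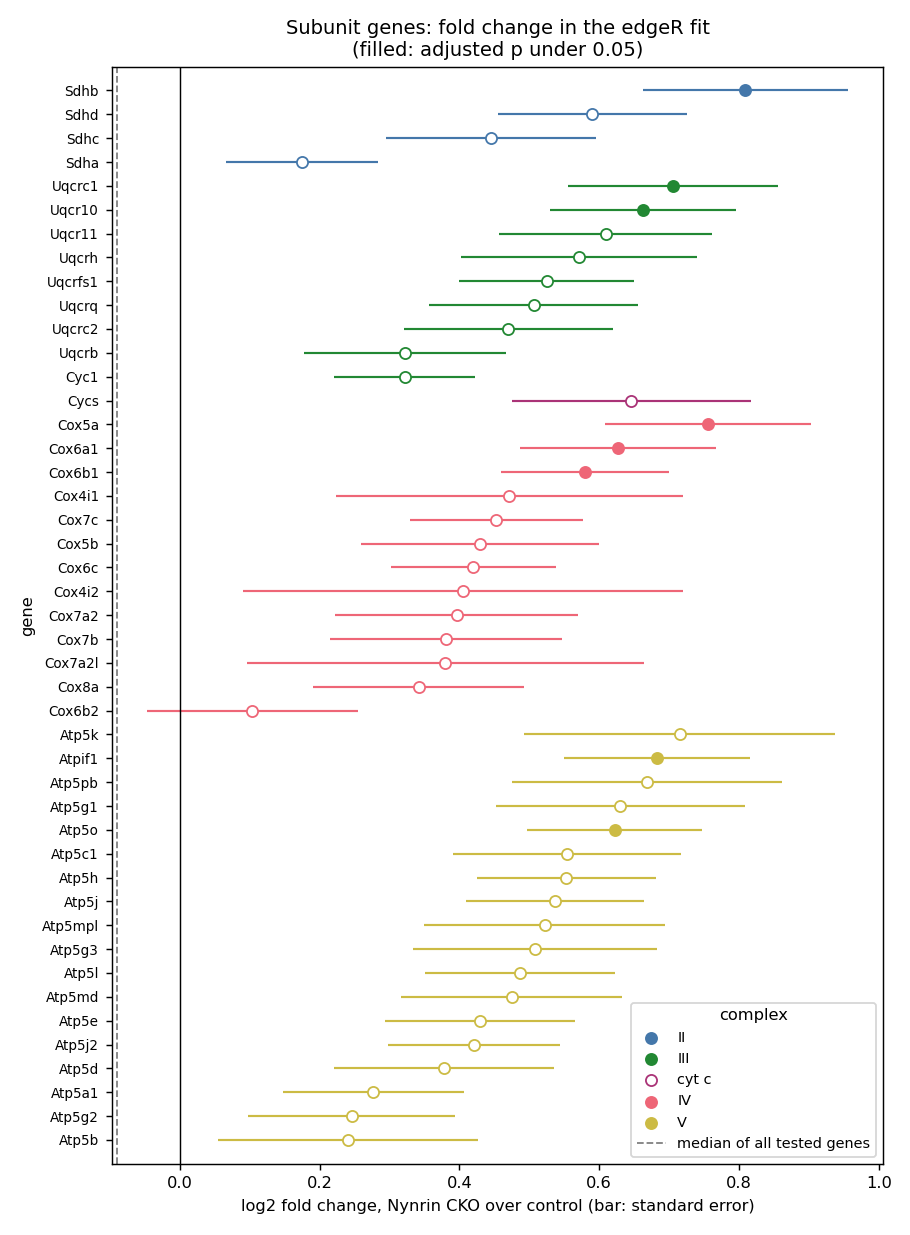
Log2 fold change of Nynrin CKO over control on the x axis for 45 subunit genes with a mean of at least 1 CPM, grouped by complex, with bars for the standard error and filled points for adjusted p under 0.05. All 45 points lie right of 0 and of the median of all tested genes at -0.09, and the 8 filled points lie between 0.58 and 0.81. Cox6a2, at 4.20, is off the axis and is not drawn.

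The rise can also be read as a share of each library's raw counts, which uses no TMM factors and amounts to scaling by total counts. With that scaling the members' median log2 fold change was 0.21, against 0.50 with TMM, and none was called. The mean share was 0.6345% in the controls and 0.7143% in Nynrin CKO, while the mean sums with TMM were 5793 and 7927 CPM. All 52 records together took 0.641%, 0.568%, 0.644% and 0.686% of counts in controls 1 to 4 and 0.718%, 0.715%, 0.713% and 0.711% in Nynrin CKO 1 to 4. Every Nynrin CKO library was above every control, the Nynrin CKO shares were close together, and control 2 stood lowest. On the TMM scale the same records summed to 5108 to 6581 CPM in the controls and to 7001, 7006, 8863 and 8839 CPM in Nynrin CKO 1 to 4. The TMM factors were 1.04 to 1.16 in the controls, 1.03 and 1.02 in Nynrin CKO 1 and 2, and 0.805 in both 3 and 4, so the step from Nynrin CKO 1 and 2 to 3 and 4 appears on the CPM scale and not in the raw share. Within the controls, control 4 was the highest for 30 of the 48 tested members and control 2 the lowest for 33.

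**Figure D2:**
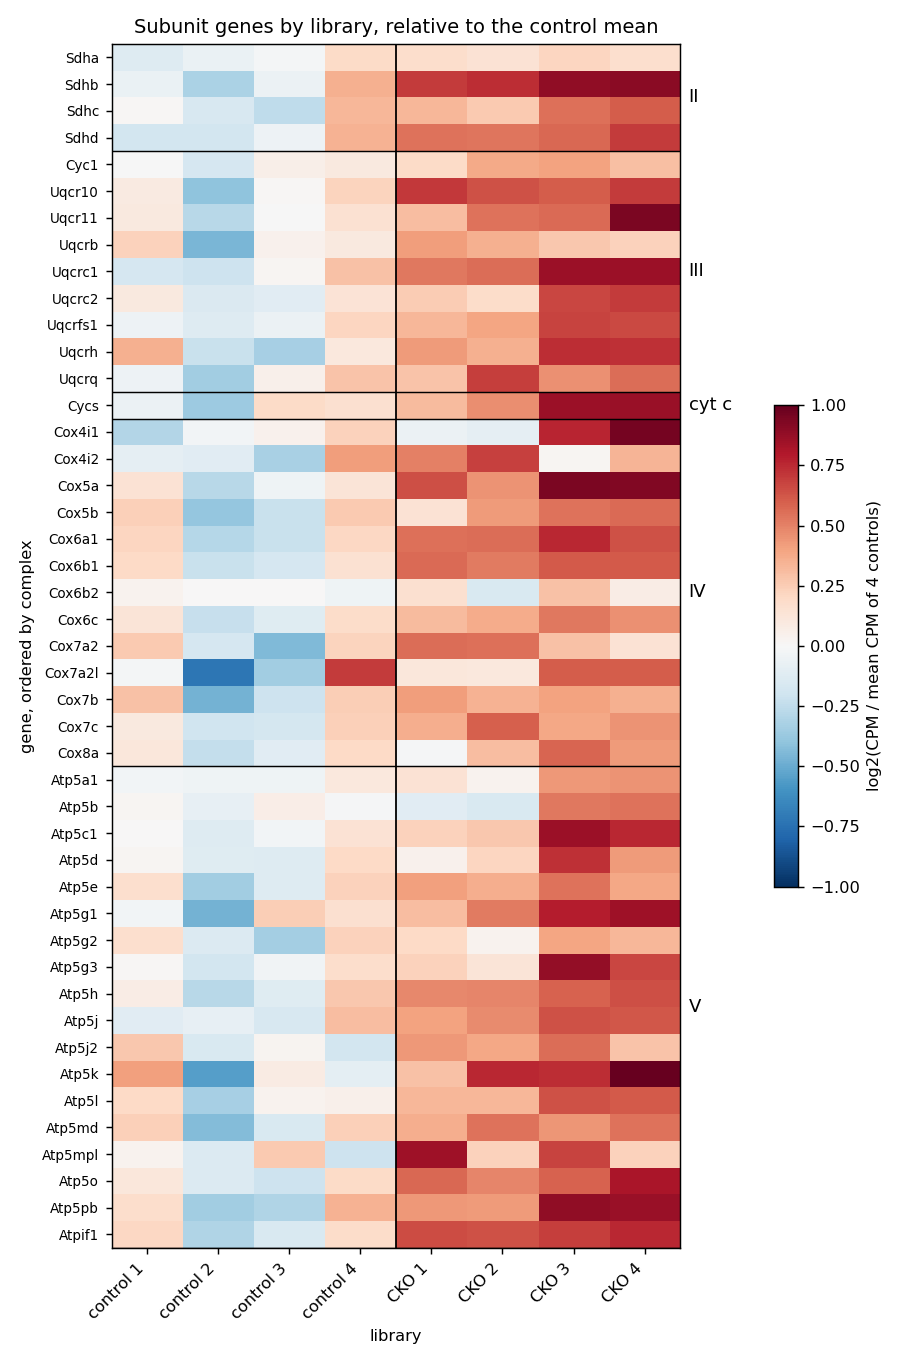
Heat map with 1 row per subunit gene (45 genes, ordered by complex) and 1 column per library, coloured by log2 of the CPM over the mean CPM of the 4 controls. Most genes are red in all 4 Nynrin CKO columns. Atp5b and Cox4i1 are red in CKO 3 and 4 and pale blue in CKO 1 and 2, and control 2 is blue for most genes.

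Complex II has 4 subunits, all encoded in the nucleus. Sdha carries the flavin that oxidises succinate, Sdhb carries the iron-sulphur clusters, and Sdhc and Sdhd anchor the enzyme in the inner membrane and bind ubiquinone. Sdhb (chromosome 4, 140961203 to 140979193, mm10) was at 135, 113, 135 and 179.7 CPM in controls 1 to 4 and at 228, 234, 261 and 263 CPM in Nynrin CKO 1 to 4. All Nynrin CKO values exceeded the highest control, which was control 4. Its mean rose from 141 ± 28.04 to 246 ± 17.9 CPM (SD, n = 4 each), a log2 fold change of 0.81 (standard error, SE, 0.15, edgeR adjusted p = 0.0398). The fold change was 0.86 among libraries with more receptor reads (controls 1 to 3, Nynrin CKO 1 and 2) and 0.54 among those with few (control 4, Nynrin CKO 3 and 4). Here and below, values for the set with few receptor reads rest on control 4 as the only control.

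Sdhd followed without passing the test. It measured 109.8, 109.6, 120.2 and 158 CPM in the controls and 182, 180.1, 186 and 202 CPM in Nynrin CKO, again without overlap (log2 fold change 0.59, edgeR adjusted p = 0.0520). Sdhc overlapped between the groups, with 140.1, 124, 116 and 176 CPM in the controls and 175, 167, 204 and 212 CPM in Nynrin CKO (0.44, adjusted p = 0.137). Sdha differed least in the complex. Its values of 369, 385, 397 and 459 CPM in the controls and 454, 445, 467 and 452 CPM in Nynrin CKO overlapped because control 4 was as high as the Nynrin CKO libraries (0.18, adjusted p = 0.454), and with total counts its sign turned (-0.09).

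The proportion of Sdhb to Sdha therefore differed between libraries, a ratio that no scaling factor enters and that was chosen after the values were seen. It does set transcripts of unlike length against each other, with 1142 bases for Sdhb, 1231 for Sdhd and 2900 for Sdha. Among expressed genes binned by transcript length, the bin of Sdhb and Sdhd had a median log2 fold change of 0.39 and that of Sdha 0.08. What part length has in the ratios to Sdha was not tested. Controls 1 to 4 had 36.5, 29.3, 34.1 and 39.2 Sdhb reads per 100 Sdha reads, and Nynrin CKO 1 to 4 had 50.3, 52.6, 55.8 and 58.2. The groups did not overlap. For Sdhd the ratio was 28.5 to 34.5 in the controls and 39.7 to 44.7 in Nynrin CKO, and for Sdhc it overlapped, with 29.3 to 38.3 against 37.5 to 47.0. Per kilobase of transcript, the mean level in controls was 139 CPM for Sdha, 123 for Sdhb, 101 for Sdhd and 43.9 for Sdhc, and in Nynrin CKO it was 157, 216, 152 and 59.7, so Sdhb stood above Sdha there. Per-kilobase levels use the longest coding transcript, and a gene with a long alternative end, such as Sdhc, Cycs, Atp5g1 or Atp5md, appears lower on that scale.

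All 9 genes of complex III lay higher in every Nynrin CKO library than in any control, and Uqcrc1 and Uqcr10 passed the test. The complex has 3 redox proteins, of which Cyc1 (cytochrome c1) and Uqcrfs1 (the Rieske iron-sulphur protein) are nuclear. Uqcrc1 and Uqcrc2 are the large core proteins on the matrix side, and Uqcrb, Uqcrh, Uqcrq, Uqcr10 and Uqcr11 are small accessory subunits. Uqcrc1 (chromosome 9, 108936633 to 108949623) was the most abundant, at 339.7, 330.4, 387 and 467 CPM in the controls and 548, 560.4, 688 and 688 CPM in Nynrin CKO. The lowest Nynrin CKO library exceeded the highest control, control 4. Means were 381 ± 62.5 and 621 ± 77.3 CPM (SD, n = 4 each), with a log2 fold change of 0.70, a standard error of 0.15 and an edgeR adjusted p of 0.0468. The fold change was 0.65 and 0.56 among libraries with more and few receptor reads.

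Uqcr10 (chromosome 11, 4701973 to 4704342), a small subunit with a single membrane span, was at 45.3, 32.4, 43.1 and 49.9 CPM in the controls and 69.6, 66.5, 64.9 and 69.3 CPM in Nynrin CKO. Its Nynrin CKO values were close together and did not step up in libraries 3 and 4. It rose by 0.66 on the log2 scale (SE 0.13, edgeR adjusted p = 0.0437). Uqcrfs1 came nearest to the threshold among the rest, with 94.5, 89.7, 94.4 and 114 CPM in the controls and 124, 129, 157 and 156 CPM in Nynrin CKO (0.53, adjusted p = 0.0556). Uqcr11 (0.61, adjusted p = 0.0641), Uqcrh (0.57, 0.0974) and Uqcrq (0.51, 0.0961) did not pass the test.

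Uqcrc2 showed another pattern than its partner Uqcrc1. It was at 163, 137, 139.9 and 167 CPM in the controls, at 180.5 and 172 CPM in Nynrin CKO 1 and 2 and at 241 and 246 CPM in 3 and 4 (log2 fold change 0.47, adjusted p = 0.115). Its fold change was 0.27 among libraries with more receptor reads and 0.54 among those with few. Uqcrc1 reads per 100 Uqcrc2 reads were 209, 241, 276 and 280 in the controls and 303, 325, 285 and 280 in Nynrin CKO, so control 4 and Nynrin CKO 4 were nearly level. The lowest fold changes of the complex were those of Cyc1, at 106, 95.0, 112 and 114 CPM in the controls and 122, 139, 141 and 131 CPM in Nynrin CKO (0.32, adjusted p = 0.110), and of Uqcrb (0.32, adjusted p = 0.267).

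Cytochrome c, the soluble carrier between complexes III and IV and a trigger of apoptosis when it leaves mitochondria, is encoded by Cycs. It measured 129, 104, 154 and 150.2 CPM in the controls and 168, 186, 242 and 245 CPM in Nynrin CKO. The groups did not overlap, and the gene did not pass the test (log2 fold change 0.65, standard error 0.17, edgeR adjusted p = 0.0745).

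Complex IV genes fall into subunits used in most tissues and isoforms known from muscle, lung or testis. Of the former 3 rose, and they are outside the catalytic core, which the mitochondrial genome encodes. Cox5a (chromosome 9, 57521274 to 57532426), a matrix-side subunit that binds thyroid hormone, was at 71.2, 53.1, 62.4 and 70.4 CPM in the controls and 100.4, 87.6, 124 and 122 CPM in Nynrin CKO. All 4 Nynrin CKO libraries were above the controls, and its fold change was the largest among the called genes of the complex (log2 0.75, standard error 0.15, edgeR adjusted p = 0.0416). Cox6a1 (chromosome 5, 115345642 to 115348981) was at 102, 72.3, 75.6 and 102 CPM in the controls and 129, 129.7, 148 and 137 CPM in Nynrin CKO (0.63, standard error 0.14, adjusted p = 0.0497). Cox6b1 (chromosome 7, 30616861 to 30626151), which lies between the monomers of the enzyme dimer, was at 109, 81.2, 84.3 and 105 CPM in the controls and 140.5, 136, 145 and 145 CPM in Nynrin CKO (0.58, standard error 0.12, adjusted p = 0.0449). In both genes control 1 was the highest control and every Nynrin CKO library lay above it.

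**Figure D3:**
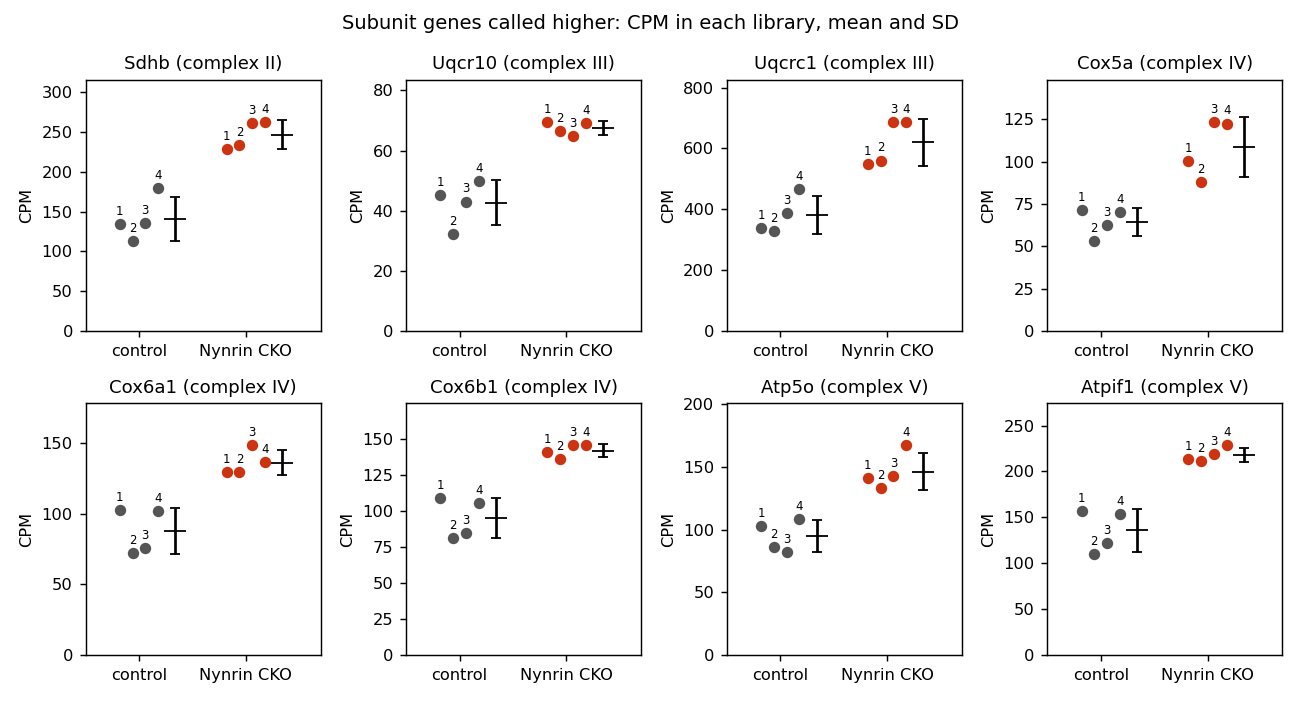
CPM of the 8 called genes in each library, with 1 panel per gene and points numbered by replicate in control (grey) and Nynrin CKO (red), and the mean with SD beside each group. No panel shows overlap between groups, and in Sdhb, Uqcr10, Uqcrc1 and Atp5o control 4 is the highest control.

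In Cox4i1, Cox7a2l and Cox7a2 the level differed between libraries of the same group. Cox4i1, the regulatory subunit that binds ATP, was at 134, 160.5, 168 and 192 CPM in the controls, at 157 and 154 CPM in Nynrin CKO 1 and 2 and at 278 and 318 CPM in 3 and 4. Nynrin CKO 1 and 2 thus lay inside the control range, with a log2 fold change of 0.02 among libraries with more receptor reads and 0.63 among those with few (0.47 over all, adjusted p = 0.359). Cox7a2l had its highest value in control 4, at 254 CPM, above 169 to 239 CPM in Nynrin CKO and 94.8 to 155 CPM in controls 1 to 3 (0.38, adjusted p = 0.561). Cox7a2 went the other way within Nynrin CKO, with 68.4 and 68.0 CPM in libraries 1 and 2 and 57.0 and 51.3 CPM in 3 and 4, against 34.3 to 55.9 CPM in controls (0.40, adjusted p = 0.257). Cox7c (0.45, adjusted p = 0.0784) and Cox6c (0.42, adjusted p = 0.0838) were higher in all 4 Nynrin CKO libraries, as was Cox7b (0.38, adjusted p = 0.252). Cox5b (0.43) and Cox8a (0.34) overlapped between groups.

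Isoforms of other tissues were low. Cox4i2, the lung and hypoxia isoform of Cox4i1, was at 1.34 to 2.23 CPM in the controls and 1.697 to 2.68 CPM in Nynrin CKO, and per kilobase its control mean was 2.28 CPM against 214 for Cox4i1. The testis isoform Cox6b2 was nearly level over all libraries, at 8.42 to 8.86 CPM in the controls and 7.78 to 10.6 CPM in Nynrin CKO (log2 fold change 0.10, adjusted p = 0.792), and its sign turned with total counts (-0.17). Cox6a2, the heart and muscle isoform of Cox6a1, had 10, 0, 0 and 23 counts in the controls, 16 and 25 in Nynrin CKO 1 and 2 and 262 and 263 in 3 and 4. Those are 5.77 and 6.32 CPM in Nynrin CKO 3 and 4 against at most 0.516 CPM elsewhere. The log2 fold change of 4.20 had a standard error of 1.40 and did not pass (adjusted p = 0.133). Nynrin CKO 3 and 4 were also the libraries with the highest neutrophil markers, whose part here was not tested. The Cox6a2 record overlaps that of Itgad, on the other strand, which was at 2.02 to 3.69 CPM in the controls and 0.784 to 2.52 CPM in Nynrin CKO, and whether the records share reads was not tested. Cox7a1 had 0 to 16 counts in the controls and 2 to 41 in Nynrin CKO, and Cox6c2 19 to 43 and 13 to 50. Cox7b2, Cox8b and Cox8c had at most 15 counts in a library and were not tested, as was the empty Atp5o record.

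In complex V the inhibitor and a stalk subunit rose while the catalytic subunits did not pass. The enzyme has a catalytic head, F1, with alternating alpha (Atp5a1) and beta (Atp5b) subunits around gamma (Atp5c1), delta (Atp5d) and epsilon (Atp5e), a rotating ring of c subunits (Atp5g1, Atp5g2, Atp5g3) in the membrane, and a peripheral stalk of OSCP (Atp5o), b (Atp5pb), d (Atp5h) and F6 (Atp5j). Atpif1 binds F1 and blocks ATP hydrolysis when the proton gradient fails. OSCP is known as the site where cyclophilin D binds the enzyme.

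Atpif1 (chromosome 4, 132530555 to 132533659) was at 157, 110.0, 122 and 154 CPM in the controls and 213, 211, 219 and 228 CPM in Nynrin CKO. The Nynrin CKO libraries lay close together, with means of 136 ± 23.3 and 218 ± 7.86 CPM (SD, n = 4 each). It rose by 0.68 on the log2 scale (SE 0.13, edgeR adjusted p = 0.0416), and it was 0.71 and 0.54 among libraries with more and few receptor reads. Atp5o (chromosome 16, 91925214 to 91931687) was at 102, 86.5, 82.4 and 108 CPM in the controls and 141, 133, 143 and 167 CPM in Nynrin CKO. That is a log2 fold change of 0.62 (SE 0.12, edgeR adjusted p = 0.0436), and 0.60 and 0.52 within the library sets. For each of the 8 called genes, a two-sided exact permutation over the 70 assignments of libraries gave p = 0.0286, the smallest that 4 against 4 allows. Every gene whose groups do not overlap gets this value, Uqcrb and Cox7b without a call among them, so it adds nothing to the calls.

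The other stalk subunits had similar fold changes without a call. Atp5h was at 76.4, 60.0, 66.6 and 87.3 CPM in the controls and 101, 102, 109 and 113 CPM in Nynrin CKO (log2 0.55, adjusted p = 0.0520), and Atp5j at 74.3, 76.1, 71.9 and 99.4 CPM against 106, 112, 125 and 123 CPM (0.54, adjusted p = 0.0553). Atp5pb reached 0.67 with controls between 154 and 249.1 CPM (adjusted p = 0.0916). The 4 stalk genes had a median log2 fold change of 0.59 and lay apart between groups in 4 of 4. Atp5j shares its region with Gabpa and Atp5pb with Wdr77, which held 26.7% and 39.4% of their counts, and reads of such neighbours can fall on either record.

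The 5 genes of the F1 head had a median of 0.38, with none called, 3 at an unadjusted p under 0.05 and 2 without overlap. Atp5b, the catalytic beta subunit and the most abundant gene of the set, was at 989, 922, 1018 and 969 CPM in the controls, at 899 and 878 CPM in Nynrin CKO 1 and 2 and at 1408 and 1422 CPM in 3 and 4. Nynrin CKO 1 and 2 were below every control and 3 and 4 above, so the mean fold change of 0.24 (adjusted p = 0.577) describes neither pair. Among libraries with more receptor reads it was -0.14 and among those with few 0.55. Atp5a1, the alpha subunit, was at 499.5, 495, 493 and 547 CPM in the controls and at 561, 522, 688 and 695 CPM in Nynrin CKO, where library 2 fell short of control 4 (0.28, adjusted p = 0.289). Atp5c1 lay apart, with 272, 248, 266 and 299.5 CPM against 319, 328, 491 and 457 CPM (0.55, adjusted p = 0.0968), again with the larger step in libraries 3 and 4. Atp5d (0.38) and Atp5e (0.43) did not pass.

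Relative to Atp5b, Atpif1 was highest in Nynrin CKO 1 and 2. Reads of Atpif1 per 100 reads of Atp5b were 15.9, 11.9, 12 and 15.9 in the controls, 23.7 and 24.0 in Nynrin CKO 1 and 2 and 15.6 and 16.1 in 3 and 4. The last pair lay at the upper edge of the controls because Atp5b was itself high there. Per kilobase of transcript, Atp5b was at 509 CPM in the controls and 601 CPM in Nynrin CKO, Atpif1 at 252 and 404 CPM, and Atp5a1 at 190.2 and 230.5 CPM. This comparison, too, was chosen after the values were seen. It also sets transcripts of unlike length against each other, with 539 bases for Atpif1 and 1916 for Atp5b.

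The c ring is unusual in that its 3 genes encode the same mature protein with different import signals. Atp5g2 took the largest share of their reads, with 49.4%, 49.7%, 38.7% and 47.5% in the controls and 45.2%, 41.1%, 38.9% and 39.1% in Nynrin CKO, and control 3 lay with the Nynrin CKO libraries. Atp5g1 took 23.5% to 34.6% and 29.2% to 34.4%, and Atp5g3 24.8% to 26.9% and 24.5% to 30.5%, so no share separated the groups. Atp5g1 had the largest fold change of the 3, at 48.5 to 79.6 CPM in the controls and 83.5 to 121 CPM in Nynrin CKO (log2 0.63, adjusted p = 0.0860). Atp5g3 (0.51, adjusted p = 0.143) and Atp5g2 (0.25, adjusted p = 0.433) overlapped between groups. Among small membrane subunits, which hold the dimer rows of the enzyme together, Atp5k, Atp5mpl, Atp5l, Atp5md and Atp5j2 had fold changes of 0.42 to 0.71 and none passed.

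Promoter sequence was compared because nuclear respiratory genes are known targets of NRF1 and of ETS-family factors such as GABP. RefSeq start sites on GRCm38.p6 were found for 38 of the 51 symbols, and the window from 250 bases before to 50 after each start was searched on both strands. The NRF1 palindrome, GCGCA followed directly by TGCGC, was in 4 of the 38 genes and in 1.61% of the 15877 tested genes with a window. The looser form, GCGC, any base and TGCGC, which contains the palindrome, was in 11 (28.9%) and 8.04%, and in 4 of the 8 called genes. The ETS core CCGGAAG was in 13 (34.2%) and 14.5%, and in 3 of the called genes. A YY1 core, AAGATGGCG, was in 2 (5.26%) and 2.45%, with none in a called gene. Each share was above that of all tested genes, a difference that was not tested and that describes letters, not binding.

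The matches in called genes are shown from their RefSeq records, 5′ to 3′ on the gene's strand, with the NRF1 or ETS letters in capitals. Cox6a1 (chr5:115348959-115349130, minus strand, ending at the base before the start) is shown because it is the called gene with both motif kinds, with the NRF1 palindrome, a second looser match and an ETS core in reverse just before the start. Atpif1 (chr4:132535415-132535565, minus) is shown up to the same point because it rose with a match far from its start. The Atpif1 start in RefSeq lies upstream of the deposited gene record.
Cox6a1: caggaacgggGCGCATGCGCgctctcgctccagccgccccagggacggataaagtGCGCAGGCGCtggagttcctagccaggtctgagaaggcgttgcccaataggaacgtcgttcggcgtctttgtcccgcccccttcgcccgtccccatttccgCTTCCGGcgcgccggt
Atpif1: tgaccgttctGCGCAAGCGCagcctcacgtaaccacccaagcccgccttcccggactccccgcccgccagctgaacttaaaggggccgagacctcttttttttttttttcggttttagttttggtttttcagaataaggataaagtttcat
For Uqcrc1, Atp5o, Sdhb and Cox6b1 the matches lie near the start, and 30 bases around 1 match each are given, at chr9:108936668-108936697 (plus), chr16:91931602-91931631 (minus), chr4:140961266-140961295 (plus) and chr7:30626124-30626153 (minus).
Uqcrc1: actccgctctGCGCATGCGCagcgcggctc
Atp5o: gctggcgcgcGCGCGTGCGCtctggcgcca
Sdhb: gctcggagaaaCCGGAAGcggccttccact
Cox6b1: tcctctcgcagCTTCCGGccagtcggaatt
Cox5a and Uqcr10, which rose as well, held none of these letters in their windows. Atp5g2, at a fold change of 0.25, also has the palindrome.

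Fold changes in these libraries moved with transcript length, and the subunit genes are short. Of 46 with a mean of at least 1 CPM, 35 were in the shortest of 5 equal bins of expressed genes, with transcripts of up to 1526 bases. In that bin all 3357 genes had a median log2 fold change of 0.39 with 8.16% called higher, and the 35 members had a median of 0.51 with 7 called. The next bin had a median of 0.25, against 0.55 for its 5 members, and the one after it 0.08, against 0.44 for its 5. The longest bin, above 4915 bases, had -0.18 and held no member. Among the 46, fold change and log length were weakly related (Pearson r = -0.12, Spearman rho = -0.15, genes of the same libraries). The 46 include Cox6a2 at 4.20, and most of them lie in the shortest bin. The relation seen over all expressed genes can therefore not be judged from the members. With each library corrected for length and GC content of the transcripts, the members' median was 0.17, with 44 of 48 positive, none called and a median of -0.12 over all genes. What part length has in the result was not tested further.

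**Figure D4:**
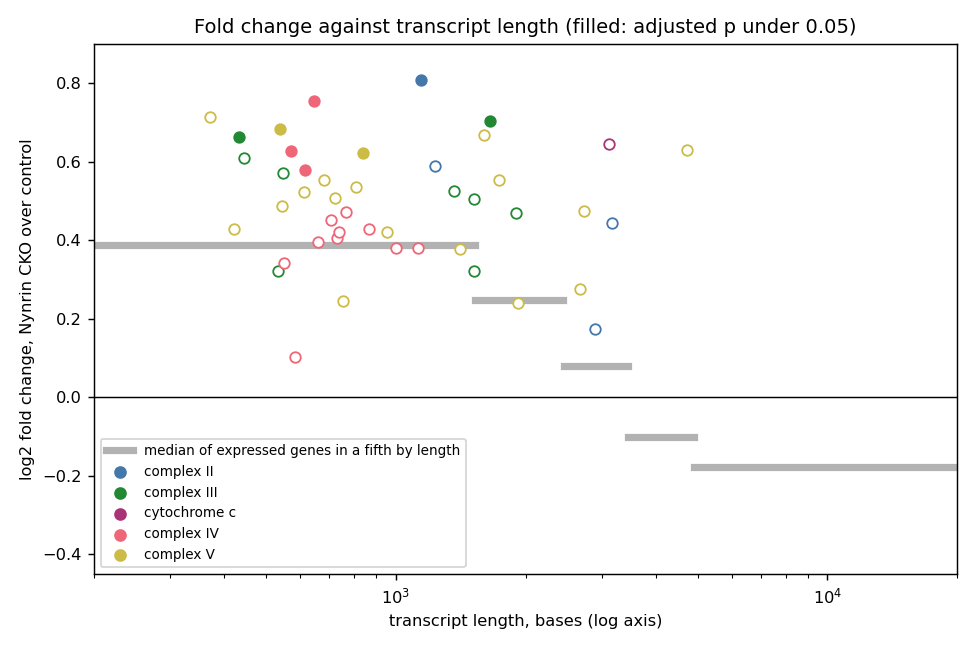
Log2 fold change against transcript length (log axis) for the same 45 subunit genes, coloured by complex and filled where adjusted p was under 0.05, with grey bars for the median of expressed genes in each of 5 length bins. Most points lie above the grey bar at their length, and Sdha, Atp5b, Atp5g2 and Cox6b2 lie near or under 0.25.

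Assembly factors and regulators of the same complexes were read from lists made by function, though earlier results of these data were known when they were made. Of 47 nuclear genes, all tested, 2 rose and none fell, with 41 positive and a median log2 fold change of 0.26. The 2 calls are 4.26% of the list, near the 2.22% called higher among all tested genes, of which 44.5% were positive. Uqcc3, an assembly factor of complex III, went from 21.2 ± 2.70 to 33.2 ± 2.78 CPM (SD, n = 4 each; log2 0.65, edgeR adjusted p = 0.0408), and Coa3, which stabilises newly made Cox1 protein, from 45.9 ± 6.86 to 73.1 ± 7.87 CPM (0.67, adjusted p = 0.0430). Both lay apart in all libraries. Of the 23 complex IV assembly genes 21 were positive (median 0.35), and of 3 for complex V the F1 chaperones Atpaf1 (1.10, adjusted p = 0.0905) and Atpaf2 (0.57, adjusted p = 0.0507) had the smallest p. The 4 for complex II gave none called, with Sdhaf4 (0.49, adjusted p = 0.166) and Sdhaf2 (0.20, adjusted p = 0.393) leading. Ndufa4, a complex IV subunit despite its symbol, was at 0.32 (adjusted p = 0.555).

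No regulator of the pathway was called among 10, and their median was 0.08. Ppargc1b, a coactivator of mitochondrial genes, and Tfam, which packages and transcribes mitochondrial DNA, had the smallest p. Ppargc1b was lower in all 4 Nynrin CKO libraries, at 7.01 ± 0.66 against 10.2 ± 0.16 CPM (SD, n = 4 each; log2 -0.55, adjusted p = 0.0722), and Tfam higher, at 61.2 ± 4.24 against 47.5 ± 4.94 CPM (0.37, adjusted p = 0.0934). Nrf1 itself was at 0.23 (adjusted p = 0.296) and Gabpa at -0.14 (adjusted p = 0.680).

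Partner subunits encoded in mitochondria had larger fold changes than the nuclear ones, though that difference was not tested. All 6 of complexes III to V lay higher in every Nynrin CKO library (median log2 fold change 0.92). mt-Cytb of complex III (0.95, edgeR adjusted p = 0.0453), mt-Atp6 (1.01, adjusted p = 0.0379) and mt-Atp8 (0.95, adjusted p = 0.0410) rose. mt-Co1 (0.72, adjusted p = 0.0812), mt-Co2 (0.68, adjusted p = 0.0641) and mt-Co3 (0.89, adjusted p = 0.0510) did not pass. Their fold changes were higher among libraries with few receptor reads (median 1.07) than with more (0.57), while the nuclear members had medians of 0.44 and 0.48.

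Among genes outside the set, the profile over the 8 libraries most like the mean of the 46 standardised members was that of Med27, a Mediator subunit (Pearson r = 0.995), followed by Ak6 (0.993), Ebp (0.993), Atg3 (0.993) and Psmb4 (0.992). Of these 5 only Ebp, a sterol isomerase, passed the test (log2 0.64, adjusted p = 0.0472). Members themselves correlated with that mean at 0.454 to 0.988 (median 0.921), with Cox6b2 lowest. These values share the libraries, their depth and the group difference, so they describe likeness only.

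Calls depended on how the libraries were processed. There were none with RLE factors, total counts, no filter, the length correction or mitochondrially encoded genes left out. Over all genes, 13 were called higher with RLE factors, 59 with total counts and 33 without a filter, against 611 in the main fit. DESeq2 called 15 members (3.03% of all genes), limma-voom 18 (5.98%), a filter of 1 CPM in 4 libraries 12 (4.11%) and the fit without control 4 called 15 (3.73%). In the 5 libraries with more receptor reads alone, 12 of 49 tested members were called higher, where 4.04% of all genes were, and 7 of the 8 were among them. With the library set as a term there were 16, including all 8, where 4.43% of all genes were called. When the resembling Nynrin CKO libraries were summed into 2, none was called, and the median stayed at 0.43.

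**Figure D5:**
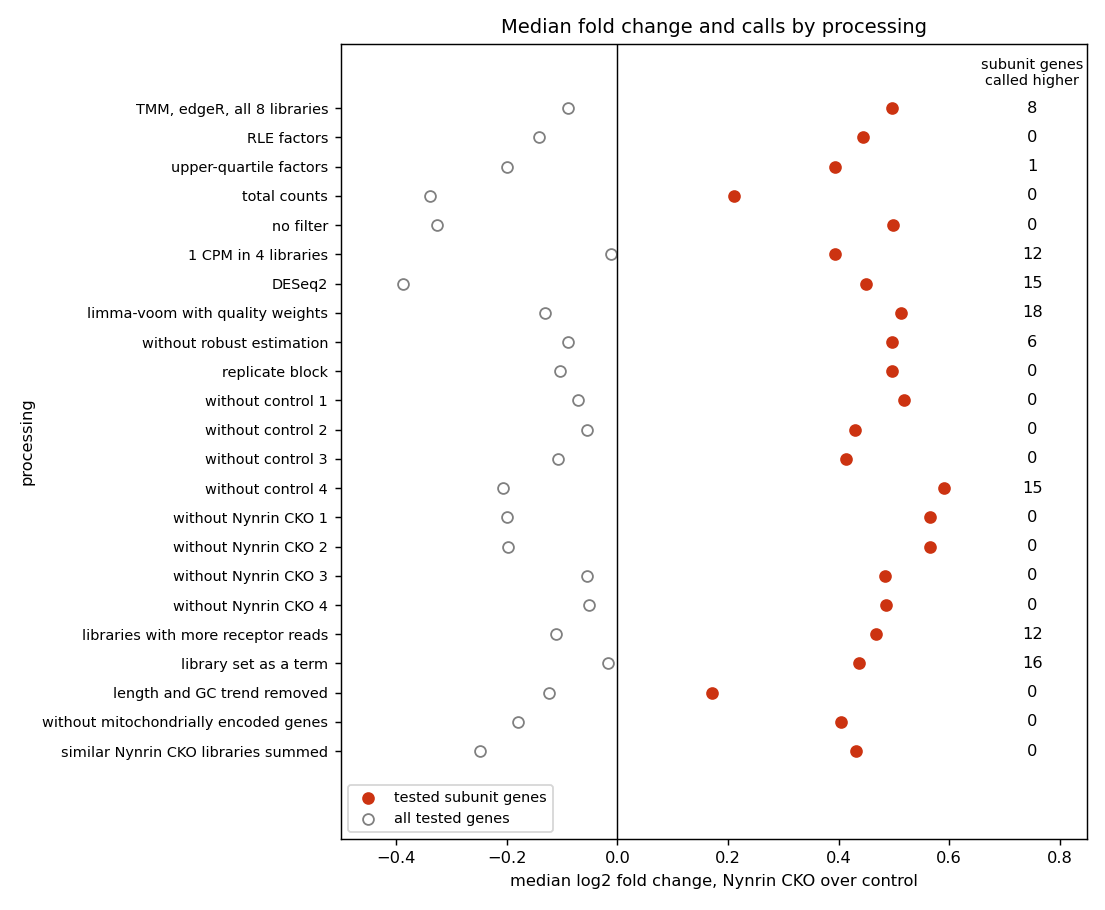
Median log2 fold change of the tested subunit genes (red) and of all tested genes (open grey) under each processing choice, with the number of subunit genes called higher at the right. The red points lie between 0.17 and 0.59, and the calls between 0 and 18.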

How the data were processed

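The values deposited by the authors are raw read counts for each gene in each of the 8 libraries, per the file headers. The submitters' processing notes name the build mm10. Aligner, counter and strand setting: not given in the sources used here. Groups and replicate numbers came from the labels. Genes were filtered with filterByExpr (27573 of 55401 kept), scaled by TMM and tested with edgeR 4.0.16 in R 4.3.3 (robust quasi-likelihood F-test, Benjamini-Hochberg adjustment over all tested genes, threshold 0.05). The standard error is the log2 fold change over the root of F. CPM carry the TMM factors, and means are ± SD. Single genes were also compared by two-sided exact permutation of log2(CPM + 1). Transcript lengths are those of the longest coding transcript in GENCODE vM21, whose coordinates matched those deposited for 49 of 52 records.

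Named genes were those that passed, the 2 with the smallest p where fewer than 2 passed, the 3 most abundant and the lowest fold change per complex, all Sdh genes, Atpif1, Cycs, Cyc1, isoform sets and Nynrin. Members and lists were chosen with earlier results of these data known. The fit was tested on simulated counts. Other settings were further scaling factors and filters, DESeq2 1.42.0, voom in limma 3.58.1, a replicate term, library sets, a length and GC trend and removal of each library. Removal of mitochondrially encoded genes and summed libraries were added after seeing the data. Pseudogene records left out by the ending -ps numbered 10, and Cox5b-ps held 12.4% of the counts of Cox5b. Reads shared by such copies can fall on either record. Records holding at least 10% of a member's counts overlap Cox6c, Cox4i1, Atp5j, Atp5pb and Cox6a2. The symbols Usmg5 and 2010107E04Rik matched no record.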

Additional observations from a re-analysis of the deposited data

Results flagged for a closer look

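In 2 genes 1 control stood apart from the other 3. Atp5a1 was at 546.9 CPM in control 4 and at 493 to 499.5 CPM in the other controls. Atp5j was at 99.42 CPM in control 4 and at 71.9 to 76.1 CPM in the others. In each the gap to the nearest control, divided by the range of the 4, was above Dixon's critical value at 95%. In all 100 groups of 4 values were examined, and chance flags about 1 in 20 of independent groups. These groups share their libraries, and the Nynrin CKO libraries resemble each other in pairs. The number flagged can therefore not be set against that rate. Control 4 is also the control with few receptor reads.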

How the results depend on the processing

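The number of subunit genes called higher was 8. It was 0 with RLE factors, with total counts, without a filter on low counts, with the length and GC trend removed, without mitochondrially encoded genes and with resembling libraries summed. It was 1 with upper-quartile factors, 15 with DESeq2, 18 with limma-voom and 16 with the library set as a term. Leaving out 1 library gave 0 to 15 calls, with 15 without control 4 and 0 without any other. Over all genes, 3, 4 and 2 were called higher without controls 1, 2 and 3. None was called lower under any setting. The median log2 fold change of 0.50 was 0.21 with total counts and 0.17 with the trend removed, and 0.41 to 0.59 without 1 library. The median over all genes was -0.34 with total counts and -0.20 with upper-quartile factors.

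Of the nuclear assembly and regulator genes, 2 were called. The count was 0 with RLE factors, total counts, no filter, the trend removed, no mitochondrially encoded genes or summed libraries, 1 with upper-quartile factors, 4 with the library set as a term, 5 with a filter of 1 CPM in 4 libraries, 6 in the libraries with more receptor reads, 8 with DESeq2 and 8 with limma-voom, and 0 to 6 without 1 library. With the replicate number as a block both counts were 0, with a smallest adjusted p of 0.069 among the subunit genes. Same-numbered libraries deviated from their group means with correlations of 0.217, 0.257, -0.365 and 0.463, and 3 of 4 correlated best with their own number, a hint of pairing in the data. Number 3 did not follow it and the labels name no shared source, so the fit without the block was kept.

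Single genes changed sign in 13 of 657 pairs of gene and setting, none of them a called gene. With total counts the log2 fold changes were -0.091 for Sdha, -0.17 for Cox6b2, -0.009 for Atp5a1, -0.067 for Atp5b and -0.028 for Atp5g2. Cox6b2 was at -0.001 with upper-quartile factors, -0.009 in the libraries with more receptor reads and -0.29 with the trend removed, where Cox8a was at -0.012. In the libraries with more receptor reads Atp5b was at -0.14 and Cox6c2 at 0.35, and Cox6c2 was at 0.009 with limma-voom and between -0.551 and 0.007 without 1 library, the latter without Nynrin CKO 4. The causes were not tested. Low counts limit Cox7a1, Cox6c2 and Cox6a2.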
